A study of Mus musculus with 6 samples.

Results

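The transglutaminases and the enzymes that process filaggrin were compared between the epidermis of healing suction blisters and control epidermis of newborn mice. The set holds 9 genes of the 24014 in each count table, taken by symbol: the transglutaminases Tgm1, Tgm2, Tgm3 and Tgm5, the proteases Casp14, Asprv1 and Blmh, and the peptidylarginine deiminases Padi1 and Padi3. All 9 were present in the tables and all 9 passed the filter on low counts. RNA was sequenced from epidermal cells of wild type dorsal skin on postnatal day 2, in 3 libraries from skin that had been blistered and was healing and in 3 libraries from control skin. The blister was raised by a negative pressure of 523.4 ± 1.3 mmHg in a syringe 4 mm across, and typically measured 3 mm. Both groups were dissociated the same way, overnight in 0.25% trypsin and through a 70 µm filter, so a library holds whatever cells came off with the epidermis. The labels give no strain or sex, no day of blistering and no number of animals per library. By RNA, blister 1 and 2 and control 1 were high in Xist (838 to 1409 CPM, with Ddx3y at 0.275 to 1.30 CPM), and blister 3 and control 2 and 3 were high in Ddx3y (40.2 to 62.0 CPM), so the sexes were not balanced between the groups. A p-value here therefore reads only how far these 6 libraries differ among themselves, and part of that spread may be technical.

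As background, the outermost layers of the epidermis are built by dying keratinocytes. Transglutaminases are calcium-dependent enzymes that join glutamine to lysine side chains, and in the upper epidermis they weld loricrin, involucrin and small proline-rich proteins into the cornified envelope. Filaggrin is made as the giant precursor profilaggrin, which is cut into monomers that bundle keratin. Deiminases turn arginine in these monomers into citrulline, and caspase-14 and bleomycin hydrolase then help to break them down to free amino acids that hold water in the stratum corneum. The same enzyme families serve the hair follicle, where deiminated and cross-linked trichohyalin hardens the inner root sheath.

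Total counts ran from 7600567 to 15912863 per library. Levels are given as CPM, counts per 1000000 counts of a library, scaled with edgeR's TMM factors (trimmed mean of M-values), as mean ± SD over 3 libraries. A gene is called where edgeR's quasi-likelihood test gives a Benjamini-Hochberg adjusted p under 0.05 over the 14028 genes tested, and log2 fold changes are blister over control with their SE. The 10 keratinocyte markers summed to 111394 to 203679 CPM in blister and 65613 to 91052 CPM in control libraries, so the labelled cell type was present in all 6. Markers of other cells differed between the groups: 9 inner root sheath markers were at 110 to 902 CPM in blister and 2523 to 5047 CPM in control libraries, and 11 neutrophil markers at 269 to 899 and 5.18 to 14.3 CPM. Most of the neutrophil sums in blister came from S100a9 (128 to 350 CPM) and S100a8 (74.2 to 265 CPM). Csf3r was at 33.1 to 86.4 CPM in blister and 1.54 to 3.19 CPM in control libraries, and Ngp, Camp and Elane at 0 to 3.85 CPM in all 6. Dermal fibroblast markers were at 316 to 1037 CPM in blister and 878 to 6708 CPM in control libraries, the highest value being control 3. No marker of the 8 lists was at 0 in all libraries. In bulk RNA, fewer cells of a type and less RNA per cell cannot be told apart.

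One member was called. Padi3, the deiminase of the hair follicle and upper epidermis, was 7.91-fold lower in blister than in control libraries, and no member was called higher. Of all genes tested, 21.3% were called, 9.74% higher and 11.6% lower in blister, so 1 call among 9 genes is not above that background. The members' log2 fold changes were above 0 for 6 genes and below 0 for 3, with a median of 0.24, beside a median of 0.0019 over all genes tested. The CPM ranges of the groups did not overlap for 4 members, Tgm1, Tgm2, Padi1 and Padi3, and for 44.6% of all genes tested.

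**Figure D1:**
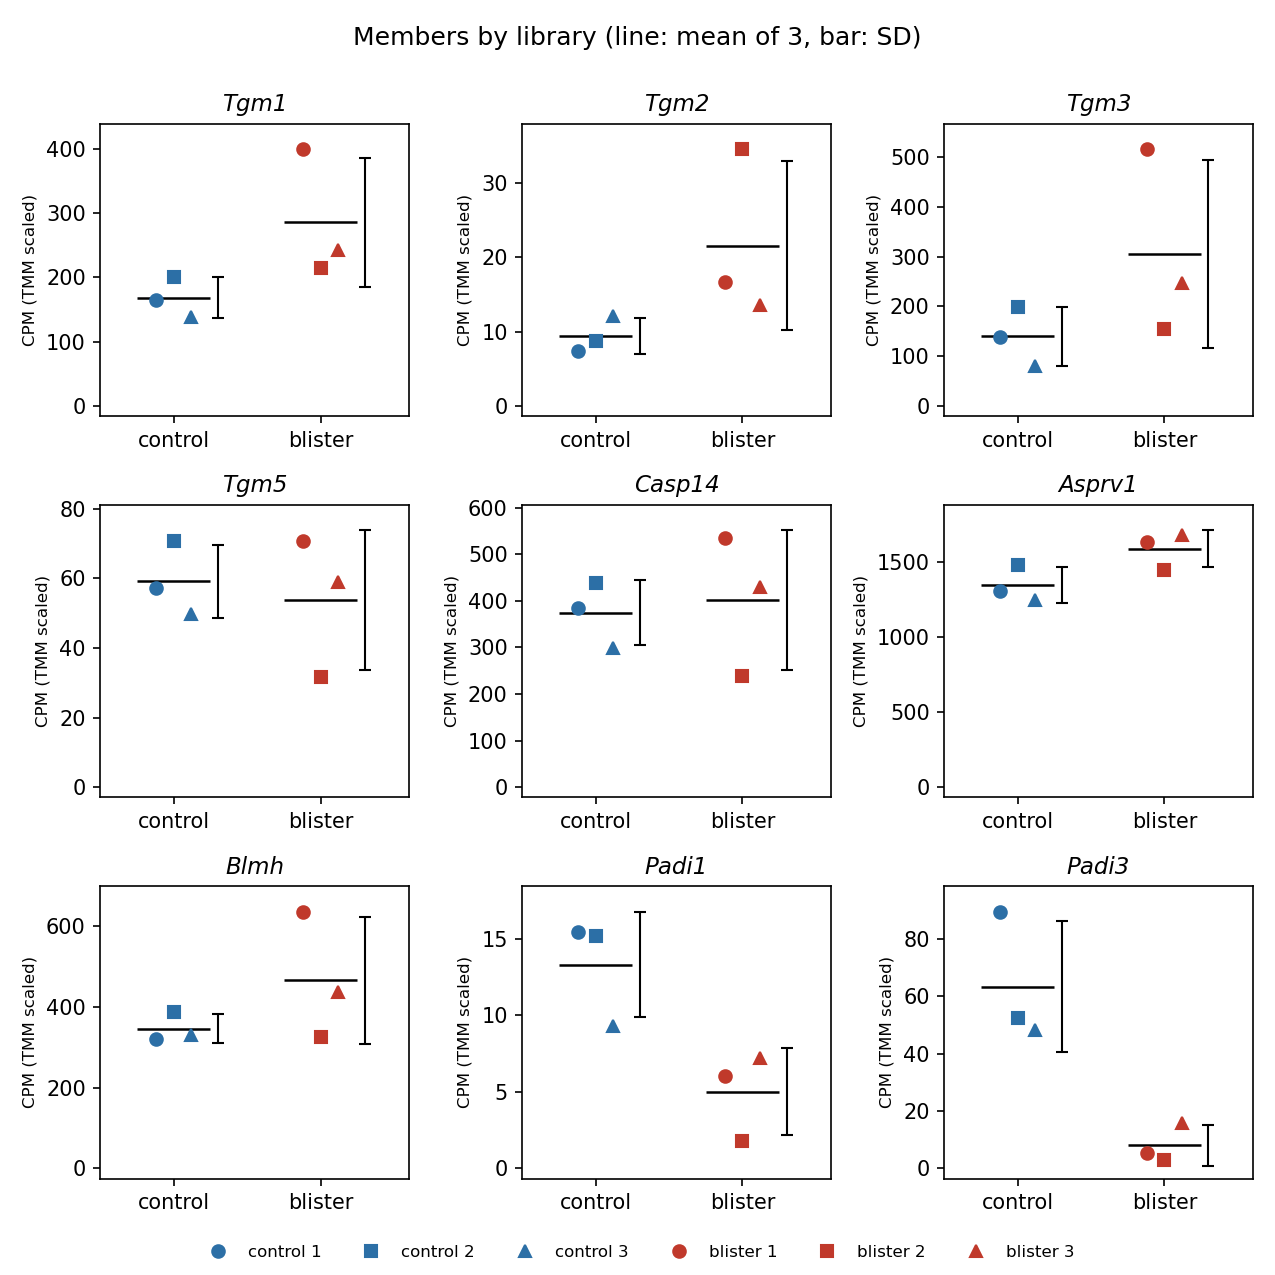
CPM of each member (vertical axes, each from its own scale) in the 3 control and 3 blister libraries; symbols mark the replicate number, lines the mean and bars the SD. Both deiminases sit lower in every blister library than in any control library, Tgm1 and Tgm2 sit higher in every blister library, and the other 5 members overlap.

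The transglutaminases have similar, though not identical, coding sequence around the cysteine that forms the bond with the glutamine. It is shown here because the 4 members carry out 1 reaction while their RNA levels differed. The stretches below, 36 bases each with the cysteine codon in capitals, were read from GENCODE M21 transcripts (GRCm38), 5′ to 3′ on the coding strand.
Tgm1: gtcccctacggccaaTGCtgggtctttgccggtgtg
Tgm2: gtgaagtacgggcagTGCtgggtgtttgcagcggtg
Tgm3: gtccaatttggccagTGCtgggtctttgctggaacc
Tgm5: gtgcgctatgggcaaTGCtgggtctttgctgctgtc
Tgm6: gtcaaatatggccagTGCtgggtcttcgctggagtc
The Tgm1 stretch lies in exon 7 of 15 at chr14:55709404-55709439 on the minus strand. Those of Tgm2 (chr2:158131341-158131376) and Tgm5 (chr2:121070742-121070777) lie in exon 6 of 13, both on the minus strand. Those of Tgm3 (chr2:130029757-130029792) and Tgm6 (chr2:130141297-130141332) lie in exon 6 of 13, both on the plus strand. Tgm3 and Tgm6, which also neighbour each other on chromosome 2 with 2 other listed genes between them, were identical at 31 of the 36 bases, and Tgm2 and Tgm3 at 23. Over whole transcripts, the longest run of bases shared exactly by any of the 36 pairs of transglutaminase family genes was 24.

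Tgm1 encodes the membrane-bound transglutaminase of the cornified envelope, the enzyme whose loss causes lamellar ichthyosis. Its level was 399, 214 and 242 CPM in blister 1, 2 and 3, against 165, 201 and 138 CPM in control 1, 2 and 3. Every blister library lay above every control library, with blister 2 and control 2 nearest to each other. The means were 285 ± 99.7 and 168 ± 31.8 CPM, a log2 fold change of 0.76 ± 0.26 that did not pass the edgeR test (adjusted p = 0.0694). DESeq2 called it higher (adjusted p = 0.0171), in a fit that called 3978 of the 14028 genes in either direction, against 2993 by edgeR. Limma-voom did not call Tgm1 (adjusted p = 0.0726). With the dermal marker level as a covariate its log2 fold change was 0.08 (edgeR adjusted p = 0.913). That covariate itself went with the group, since 9 of the 10 dermal markers had a log2 fold change below 0. Fits with it, here and below, therefore cannot fully separate covariate and group. On 5.76% of its exon bases Tgm1 overlaps Gm49067 on the other strand, which is not in the count tables and has no level here. Reads there cannot be told apart, since the strand setting of the counting is not given.

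Tgm3 encodes a soluble transglutaminase, activated by proteolysis, of the granular layer and the hair follicle. Blister 1 stood apart at 516 CPM, with blister 2 and 3 at 154 and 246 CPM and the controls at 139, 199 and 80.9 CPM. The groups overlapped, since blister 2 was below control 2. The log2 fold change was 1.13 ± 0.47 (edgeR adjusted p = 0.122), and without blister 1 the blister mean went from 305 to 199.98 CPM and the adjusted p to 0.401.

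Tgm5, an envelope cross-linker whose loss in humans gives acral peeling skin, had 70.7, 31.5 and 58.8 CPM in the blister and 57.1, 70.6 and 49.8 CPM in the control libraries. Blister 2 lay below every control, and the other blister libraries lay within or just above the control range. The log2 fold change was -0.13 ± 0.28 (edgeR adjusted p = 0.754). Its sign turned to 0.14 without blister 2 and to 0.01 without control 2.

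Tgm2, the widely expressed tissue transglutaminase, is a minor product of epidermis and is found in fibroblasts, endothelium and leukocytes. Its level was 16.6, 34.6 and 13.6 CPM in the blister libraries against 7.44, 8.75 and 12.1 CPM in the controls, with no overlap between the groups. The log2 fold change of 1.18 ± 0.37 did not pass the edgeR test (adjusted p = 0.0598). DESeq2 called it higher (adjusted p = 0.0104), as did edgeR without blister 3 (adjusted p = 0.0279). Blister 2, the highest library for Tgm2, also had the highest sums of neutrophil markers (899 CPM) and dermal fibroblast markers (1037 CPM) of the blister libraries, and control 3, the highest control, had the highest dermal sum of all. Endothelial markers summed to 6.70 to 15.3 CPM in blister and 13.4 to 96.9 CPM in control libraries. With the dermal marker level as a covariate, the log2 fold change of Tgm2 was 2.13 (edgeR adjusted p = 0.0492), and the part of neutrophils in the Tgm2 difference was not tested. Reads of Tgm2 on 8.03% of its exon bases cannot be told from those of Rprd1b on the other strand, since the strand setting of the counting is not given. Rprd1b had a log2 fold change of 0.01 (edgeR adjusted p = 0.939). The same holds on 13.7% of its exon bases for Gm20412, also on the other strand, which is not in the count tables and has no level here.

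**Figure D2:**
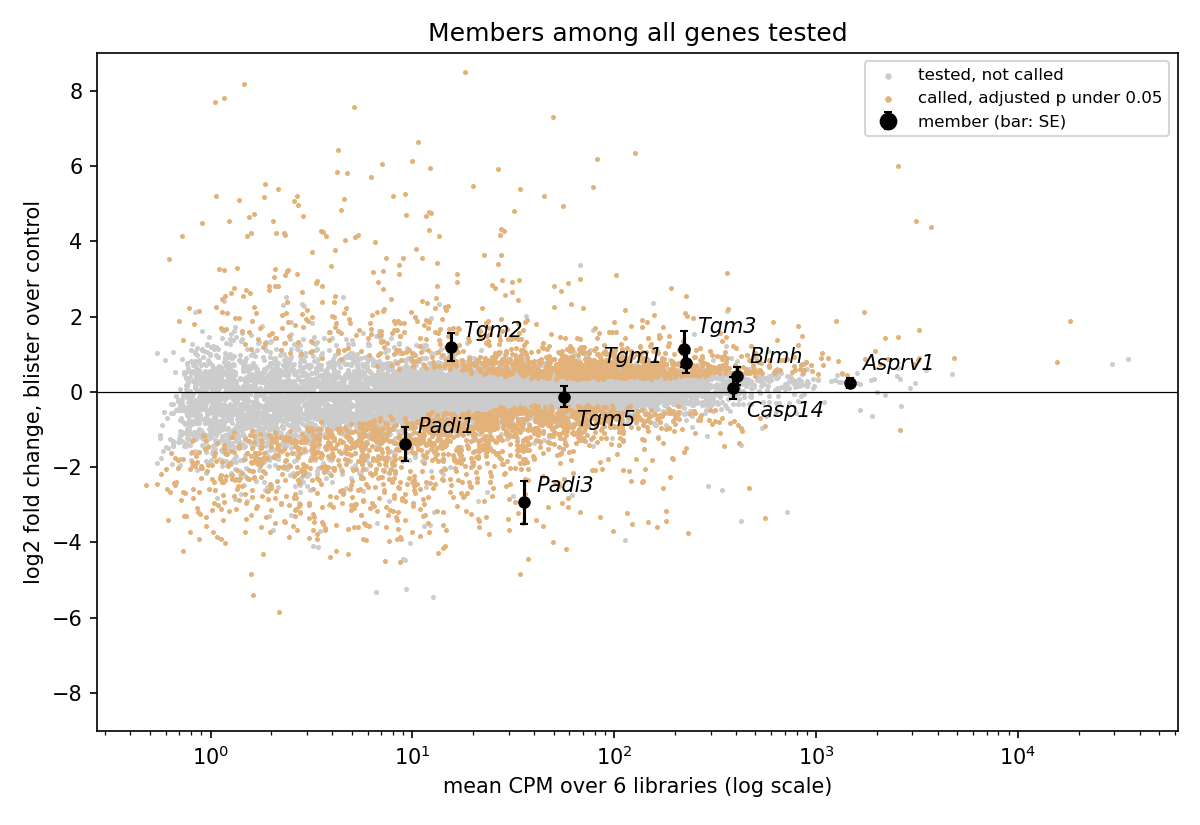
Log2 fold change, blister over control, against the mean CPM over 6 libraries (log axis) for the 14028 genes tested, called genes in orange; black points are the members, with bars of 1 SE. Padi3 lies among the called lower genes, and Tgm1, Tgm2 and Tgm3 lie at the upper edge of the genes that were not called.

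Levels of different genes were compared per kilobase of annotated exon. In control libraries the 4 transglutaminases stood in the order Tgm1 (53.1 ± 10.1 CPM per kilobase), Tgm3 (33.8 ± 14.3), Tgm5 (18.8 ± 3.34) and Tgm2 (2.04 ± 0.52). In blister libraries the order was the same, with Tgm1 at 90.2 ± 31.5, Tgm3 at 73.8 ± 45.5, Tgm5 at 17.01 ± 6.36 and Tgm2 at 4.68 ± 2.46 CPM per kilobase. Tgm1 and Tgm3 were closer to each other than their spread in the blister libraries, and Tgm2 was the lowest of the 4 in every library.

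The mix of the 4 transglutaminases was compared as each gene's percent of their summed counts per kilobase, a measure within a library that no scaling between libraries can move. Tgm5 made up 17.1%, 16.4% and 19.4% of the sum in control 1, 2 and 3, and 8.09%, 8.16% and 11.8% in blister 1, 2 and 3. The shares did not overlap, with means of 17.7 ± 1.53% and 9.36 ± 2.14%, a difference of -8.30 percentage points. An exact two-sided permutation test over the libraries gave p = 0.1, the smallest that 3 against 3 allows, and 0.4 after adjustment over the 4 genes, so the difference cannot pass a threshold of 0.05 in this design. Tgm3 took up 45.0%, 30.4% and 37.7% in blister and 31.9%, 35.4% and 24.0% in control libraries, a difference of 7.29 points (exact p = 0.3). The Tgm1 share averaged 49.8 ± 4.98% and 49.9 ± 3.36%, and that of Tgm2 3.10 ± 2.64% and 2.05 ± 1.0103% (exact p = 1 and 0.7).

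**Figure D3:**
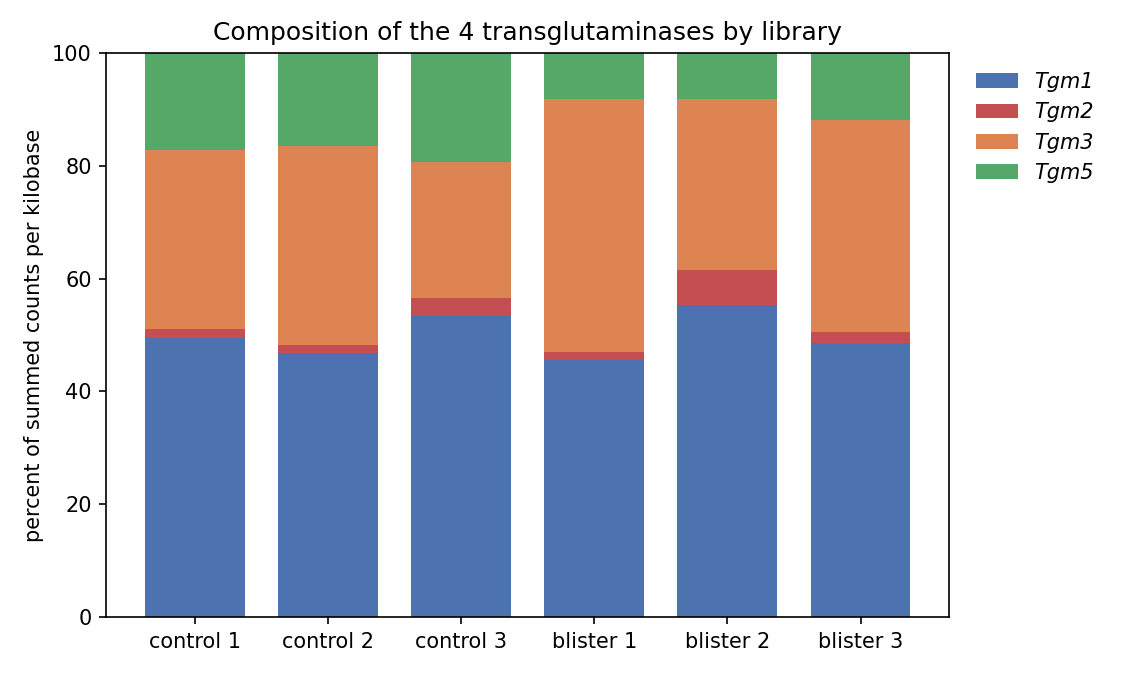
Percent of the summed counts per kilobase of Tgm1, Tgm2, Tgm3 and Tgm5 (vertical axis) that each gene made up in each of the 6 libraries. The Tgm5 segment is 16.4% to 19.4% of the sum in the control libraries and 8.09% to 11.8% in the blister libraries, and the Tgm1 segment averages 49.9% and 49.8%.

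The proteases gave no call. Asprv1 encodes SASPase, a retroviral-like aspartic protease that cuts the linkers of profilaggrin, and was the most abundant member. It stood at 1632, 1449 and 1682 CPM in the blister and 1307, 1483 and 1249 CPM in the control libraries, so the groups overlapped by blister 2 alone. Its log2 fold change was 0.24 ± 0.14 (edgeR adjusted p = 0.233), the smallest SE of the 9 members. With library totals in place of TMM factors the value was -0.02, so no direction is given for it.

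Casp14, the caspase of cornifying keratinocytes, stood at 535, 239 and 430.5 CPM in the blister and 385, 438 and 299.6 CPM in the control libraries. Blister held both the highest and the lowest value. The log2 fold change was 0.10 ± 0.29 (edgeR adjusted p = 0.819), and its sign turned with the scaling (-0.17 with library totals) and without blister 1 (-0.15) or control 3 (-0.04).

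Blmh, the bleomycin hydrolase that degrades deiminated filaggrin peptides, stood at 637, 326 and 437 CPM in the blister and 321, 389 and 330.2 CPM in the control libraries. Blister 1 and 3 lay above all controls and blister 2 lay between them. The log2 fold change was 0.43 ± 0.24 (edgeR adjusted p = 0.222). Per kilobase, Asprv1 led all 9 members at 870.3 ± 78.6 CPM per kilobase in control and 1026 ± 79.1 in blister libraries, followed by Casp14 at 156 ± 29.2 and 168 ± 62.6. Blmh came next in control libraries at 58.9 ± 6.25, not separable from Tgm1 by its spread, and stood after Tgm1 in blister libraries at 79.2 ± 26.7. The place of Blmh beside Tgm1 rests on the length used. All annotated exons of Blmh span 5891 bases and its longest transcript 3047, against 3162 and 2852 bases for Tgm1. By longest transcript Blmh would stand above Tgm1 in both groups. Padi3 stood next to Tgm5 in control libraries, at 18.4 ± 6.58 CPM per kilobase, and below Tgm2 in blister libraries, at 2.32 ± 2.03. Padi1 was at 3.55 ± 0.92 and 1.34 ± 0.76 CPM per kilobase.

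Blister 1 was the highest blister library for 5 members (Tgm1, Tgm3, Tgm5, Casp14 and Blmh), and it was also the highest for Krt1 and Krt10, the keratin pair of the suprabasal layers. These took 11.1%, 4.15% and 6.75% of the counts in blister 1, 2 and 3 against 4.38%, 6.71% and 4.23% in control 1, 2 and 3, and neither gene was called. The members were therefore also set against this keratin pair, a comparison chosen after the data were seen. Since the pair was itself more abundant in the blister libraries on average, every gene shifts down on this scale: one with equal CPM in all 6 libraries has a mean log2 difference of -0.70. Of all genes tested, 21.9% did not overlap between the groups on it, 1.3% higher and 20.6% lower in blister. Casp14 then stood at 4.05, 5.52 and 6.08 counts per 1000 counts of Krt1 and Krt10 in blister and 9.78, 6.91 and 7.82 in control libraries, a mean log2 difference of -0.65 with no overlap, close to the shift alone. Tgm5 was at 0.535, 0.727 and 0.831 in the blister and 1.45, 1.11 and 1.30 in the control libraries, a mean log2 difference of -0.90, again with no overlap and not far from the shift.

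Both deiminases lay further below the shift, Padi1 at a mean log2 difference of -2.30 and Padi3 at -4.00. For each of these 4 genes the exact permutation p was 0.1, the smallest possible, and 0.225 after adjustment over the 9 members. The other 5 overlapped, with mean log2 differences of 0.03 for Tgm1, 0.41 for Tgm2, 0.35 for Tgm3, -0.46 for Asprv1 and -0.32 for Blmh (exact p from 0.2 to 1). All 5 lay above the shift of -0.70, so a value near or below 0 here does not mean equal or lower CPM in blister. Against the keratin pair, Tgm1 was at 3.79 ± 1.011 in blister and 3.65 ± 0.51 in control libraries.

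**Figure D4:**
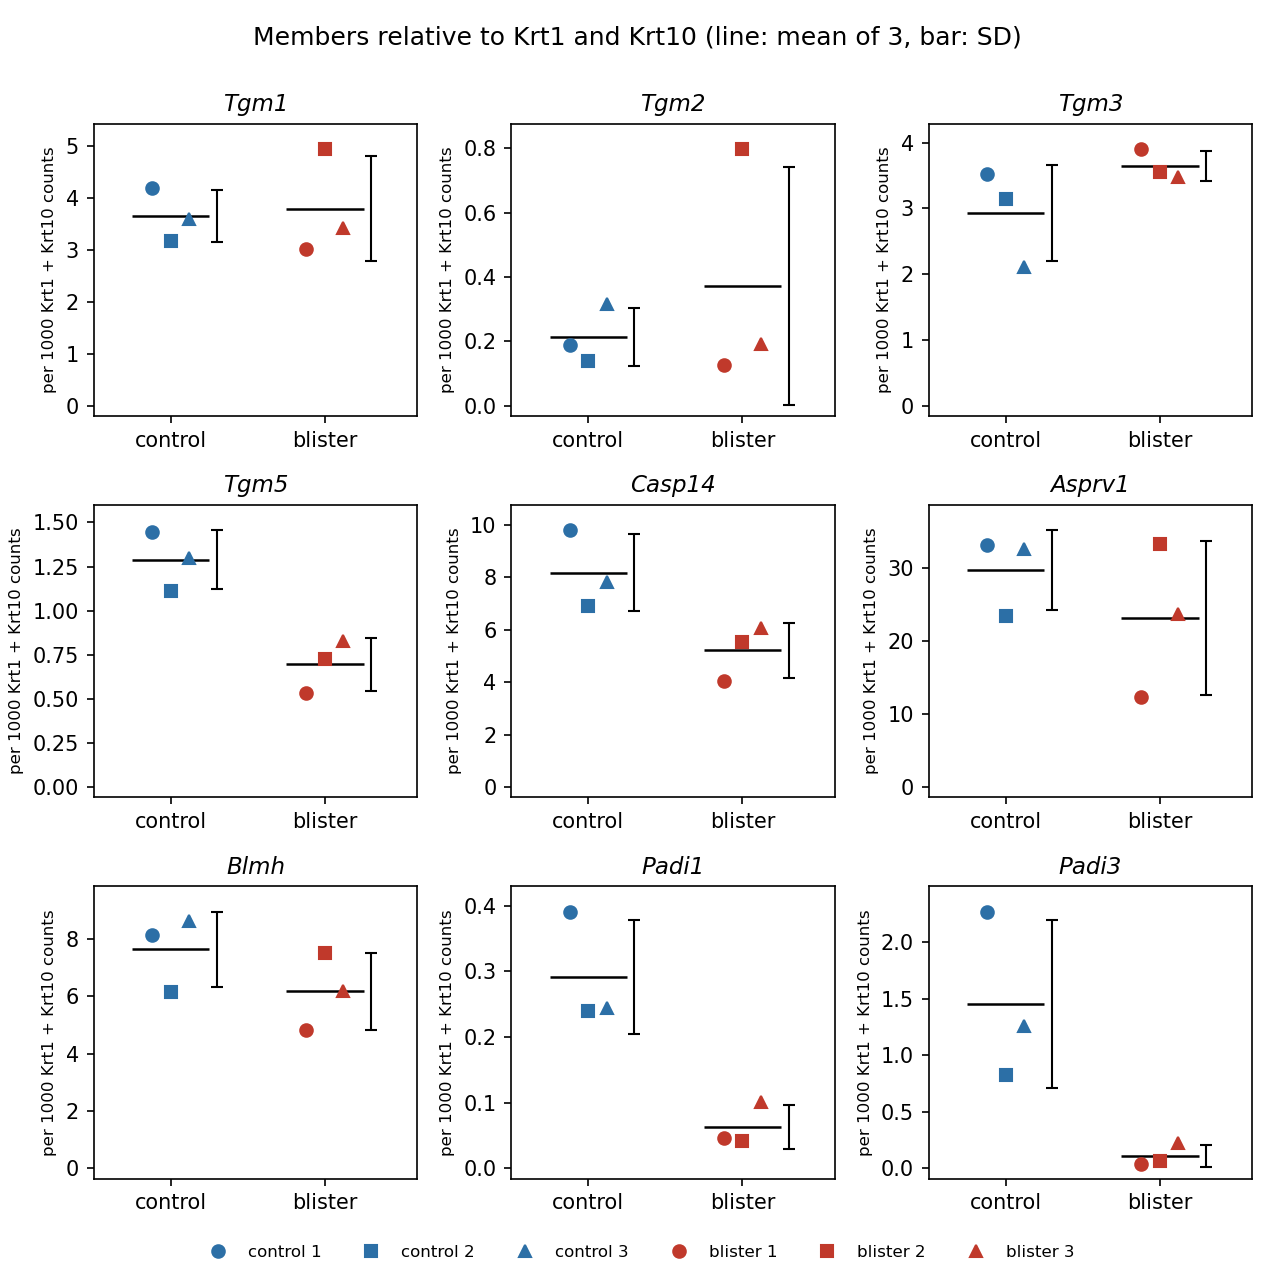
Counts of each member per 1000 counts of Krt1 and Krt10 (vertical axes) in 3 control and 3 blister libraries; symbols mark the replicate number, lines the mean and bars the SD. Tgm5, Casp14, Padi1 and Padi3 do not overlap between the groups, nor do 21.9% of all genes tested, on a scale where a gene with equal CPM in all libraries has a mean log2 difference of -0.70.

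Padi3 had the largest fold change of the members, and that of its neighbour Padi1 had the same sign. Their promoters are printed because the pair lie side by side on chromosome 4, on the same strand, with 1 listed gene between them. Both come from RefSeq (GRCm38.p6), 250 bases before to 50 after the annotated start, 5′ to 3′ on the minus strand. Capitals mark matches, on either strand, to any of 7 motifs, which are the TATA box (TATAAA), the CCAAT box, the Sp1 box (GGGCGG), the AP-1 site (TGANTCA), the LEF/TCF site (CTTTGAT), the GATA site (AGATAA) and the grainyhead-like site (AACCGGTT).
Padi3, chr4:140810599-140810898: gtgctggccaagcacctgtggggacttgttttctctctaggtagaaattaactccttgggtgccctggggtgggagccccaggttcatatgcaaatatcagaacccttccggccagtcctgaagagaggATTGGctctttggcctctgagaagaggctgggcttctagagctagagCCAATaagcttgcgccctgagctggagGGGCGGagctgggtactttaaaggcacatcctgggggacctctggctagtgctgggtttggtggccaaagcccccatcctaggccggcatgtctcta
Padi1, chr4:140845729-140846028: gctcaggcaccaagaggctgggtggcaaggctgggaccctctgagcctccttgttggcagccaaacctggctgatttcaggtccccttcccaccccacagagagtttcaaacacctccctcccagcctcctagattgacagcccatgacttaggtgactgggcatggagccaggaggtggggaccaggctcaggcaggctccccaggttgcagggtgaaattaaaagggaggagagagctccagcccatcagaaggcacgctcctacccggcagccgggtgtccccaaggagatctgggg
The Padi3 window held 2 CCAAT boxes and 1 GGGCGG box, none overlapping another. Of 32851 RefSeq promoter windows of this length, 37.4% held a CCAAT match and 35.7% a GGGCGG match. TATAAA was in 13.6% of windows, TGANTCA in 7.81%, CTTTGAT in 3.73%, AGATAA in 11.2% and AACCGGTT in 0.146%. The Padi1 window held none of the 7 motifs, which says only that these letters are not in it. GC content was 56.7% in the Padi3 window and 61.3% in the Padi1 window.

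Padi3 deiminates trichohyalin and the hair protein S100a3. It stood at 5.32, 2.75 and 15.96 CPM in the blister and 89.5, 52.4 and 48.2 CPM in the control libraries. The highest blister library, blister 3, was well under the lowest control. The means were 8.01 ± 7.004 and 63.4 ± 22.7 CPM, and the log2 fold change of -2.94 ± 0.56 passed the edgeR test (adjusted p = 0.0154). Only 1.30% of the genes tested had a lower log2 fold change. The call was lost without blister 1 (log2 fold change -2.68, adjusted p = 0.0621) and without control 1 (-2.61, adjusted p = 0.0531), and without blister 3 the blister mean was 4.04 CPM. With the Xist level as a covariate Padi3 was still the only member called (log2 fold change -2.93, edgeR adjusted p = 0.0281).

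Padi1, which is made in the living and granular layers of the epidermis and in the hair follicle, stood at 6.06, 1.79 and 7.22 CPM in the blister and 15.4, 15.2 and 9.33 CPM in the control libraries. The groups did not overlap, with blister 3 and control 3 nearest to each other. Its log2 fold change of -1.37 ± 0.45 did not pass the edgeR test (adjusted p = 0.0669). DESeq2 called it lower (adjusted p = 0.0140), and so did edgeR without blister 3 (adjusted p = 0.04996). In counts, Padi1 had 66, 13 and 85 reads in blister and 201, 217 and 164 in control libraries. On 32.0% of its exon bases Padi1 overlaps Gm13032 on the other strand, which had 2 to 10 counts per library. The longest run of bases that Padi1 and Padi3 transcripts share exactly is 63, and reads that lie within it cannot be told apart.

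The inner root sheath markers moved with Padi3. Of 9 markers, 8 were called lower, and their sum in each library ordered the libraries as Padi3 did, with control 1 highest and blister 2 lowest. Of 11 hair shaft markers 9 were called lower, with sums of 22.0 to 134 CPM in blister and 367 to 618 CPM in control libraries. The part of follicle cell number in the Padi3 difference was not tested. With the dermal marker level as a covariate Padi3 had a log2 fold change of -3.83, with an edgeR adjusted p of 0.0736.

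Over the 6 libraries, the 2 genes of 11238 with a mean of at least 5 CPM whose log2 CPM was most like that of Padi3 were Crym, which encodes mu-crystallin, and Krt27, an inner root sheath keratin. Pearson's r was 0.998 for each, a description over 6 libraries that share the difference between the groups. Crym was at 3.59 CPM in blister and 35.6 CPM in control libraries on average, and Krt27 at 36.0 and 324 CPM, both called lower (edgeR adjusted p = 0.0165 and 0.0185), though neither without blister 1 or without control 1. Without blister 3 their blister means were 1.56 and 16.8 CPM.

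For the other members the same rule named Dbnl and Tdh for Tgm1 (r = 0.999 each), Hoxb7 and Cdk5rap1 for Tgm2 (0.998 and 0.994), and Ubxn6 and Serpinb3b for Tgm3 (0.995 each). Paqr4 and Hpse were nearest to Tgm5 (0.993 and 0.992), and Scnn1a and Kcnk2 to Casp14 (0.994 and 0.990). Hps6 and Fam129b were nearest to Asprv1 (0.996 and 0.989), Sox3 and Krt1 to Blmh (0.992 and 0.991), and Prss8 and Dlg3 to Padi1 (0.998 and 0.997). Of these 16 genes, Tdh alone was called (higher, edgeR adjusted p = 0.0454), and its call was lost without blister 1 and without each control library in turn.

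**Figure D5:**
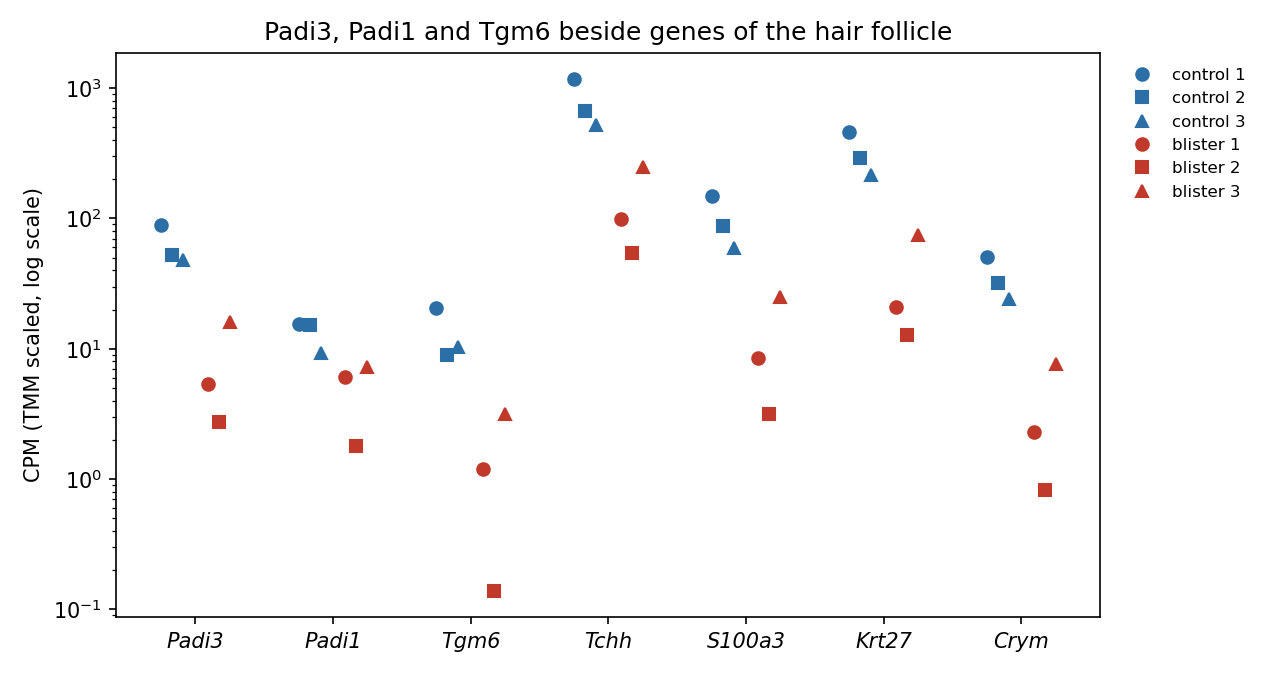
CPM (log axis) in 3 control and 3 blister libraries of Padi3, Padi1 and Tgm6 and of Tchh, S100a3, Krt27 and Crym; symbols mark the replicate number. For each of the 7 genes every blister library lies below every control library, and control 1 is the highest and blister 2 the lowest library. Krt27 and Crym were chosen as most like Padi3 over these same libraries. Tgm6 and Tchh were chosen as called genes, and S100a3 after its values were seen. Their shared order is thus no separate evidence, and the groups did not overlap for 44.6% of all genes tested.

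Other genes of both enzyme families were read from a list of 9, of which 6 were tested, with 0 called higher and 1 lower and a median log2 fold change of -0.64. For this list and those below, the share called over all genes tested was 21.3%, and 1 call among 6 is not above it. Tgm6, the neighbour of Tgm3, was the one called. It had 1.19, 0.138 and 3.14 CPM in the blister and 20.5, 8.96 and 10.4 CPM in the control libraries, a log2 fold change of -3.06 ± 0.71 (edgeR adjusted p = 0.0248). The blister values rest on few reads, 13, 1 and 37, against 267, 128 and 183 in the control libraries. Tgm6 was thus called lower while the log2 fold change of Tgm3 was 1.13 ± 0.47 and not called. The Tgm6 call was lost without blister 1, control 1 or control 2, with adjusted p up to 0.0909, and without blister 3 its blister mean was 0.665 CPM. Among the deiminases, Padi4, which citrullinates histones in neutrophils, averaged 23.6 CPM in blister and 19.6 CPM in control libraries (edgeR adjusted p = 0.524), beside neutrophil markers of which 7 of 7 tested were called higher. Padi2 averaged 1.41 and 2.43 CPM (adjusted p = 0.162), so of the 4 deiminases tested edgeR called Padi3 alone.

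The list of the filaggrin family with its other proteases, inhibitors and breakdown enzymes had 23 tested genes of 25, with 7 called higher and 3 lower and a median of 0.35. Flg itself was not found by symbol in the count tables, so it was not analysed here. Of the fused-type S100 relatives of filaggrin, Rptn (repetin) rose from 58.2 ± 26.0 to 217 ± 104 CPM, with a log2 fold change of 1.90 ± 0.41 (edgeR adjusted p = 0.0205). In the same family Crnn (cornulin) fell from 31.4 ± 13.9 to 4.46 ± 3.82 CPM (-2.77 ± 0.57, adjusted p = 0.0188). Tchh (trichohyalin), the follicle substrate of Padi3, fell from 792 ± 347 to 134 ± 102 CPM (-2.56 ± 0.57, adjusted p = 0.0226), with 98.5, 54.5 and 249.6 CPM in the blister and 1184, 668 and 524 CPM in the control libraries. Tchhl1, given after its values were seen, fell as well (-1.37 ± 0.37, edgeR adjusted p = 0.0379). Flg2 and Hrnr were not called, with log2 fold changes of -0.84 and -0.14, so of these 6 relatives 1 rose, 3 fell and 2 did not pass the test.

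Among the proteases of that list, Capn2, a subunit of the calcium-dependent protease calpain, rose from 90.9 ± 20.2 to 244 ± 51.4 CPM (edgeR log2 fold change 1.42 ± 0.21, adjusted p = 0.00827). The lysosomal cathepsins Ctsl (174 to 330.5 CPM, 0.92 ± 0.21) and Ctsc (77.4 to 128 CPM, 0.73 ± 0.16) rose as well (edgeR adjusted p = 0.0231 and 0.0216). Capn2 was called in all 6 fits that left out 1 library. Crnn was not called without blister 1 or control 1, Rptn and Tchh without blister 1, control 1 or control 2, Ctsl without blister 2, control 1 or control 2, and Ctsc without blister 1 or any 1 of the controls. Tchhl1 was not called without blister 1, blister 2, control 1 or control 2. The highest adjusted p in these fits was 0.123, for Tchhl1 without control 1. Without blister 3 the blister means of Crnn and Tchh were 2.27 and 76.5 CPM.

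The list of transglutaminase substrates and envelope scaffold genes had 24 tested genes of 25, with 9 called higher and 3 lower and a median of 0.80. The 4 transglutaminases, none of them called, had a median of 0.95, and the lists were not tested against each other. Sprr1b, Sprr2h and Sprr2d, small proline-rich proteins that bridge the envelope, had the largest rises of the list's called genes. Sprr1b went from 73.0 ± 24.1 to 654 ± 154 CPM (3.16 ± 0.28, edgeR adjusted p = 0.00367). Sprr2h rose from 15.1 ± 3.59 to 120.1 ± 23.8 CPM (2.99 ± 0.22, adjusted p = 0.00343) and Sprr2d from 7.59 ± 5.07 to 60.2 ± 21.4 CPM (2.96 ± 0.48, adjusted p = 0.0100). Anxa1 (annexin A1) rose from 740.0 ± 52.7 to 1379 ± 101 CPM (0.90 ± 0.13, adjusted p = 0.00814).

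Csta1 (a stefin of the envelope) rose from 89.1 ± 19.6 to 246 ± 94.5 CPM (edgeR adjusted p = 0.0173) and Lce3c (a late envelope protein) from 4.52 ± 0.98 to 13.6 ± 4.86 CPM (adjusted p = 0.0166). The 4 genes Sprr1b, Sprr2h, Sprr2d and Anxa1 were called in all 6 fits that left out 1 library, with the control mean of Sprr2d at 4.67 CPM without control 3. Lce3c was not called without control 1 or control 2, nor Csta1 without control 1 or control 3 (adjusted p up to 0.0641).

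Of the 3 called lower in that list, Lor and S100a3 are given here after their values were seen. Lor (loricrin), the bulk protein of the envelope and a substrate of Tgm1 and Tgm3, fell from 3463 ± 962 to 1720.3 ± 502 CPM (-1.009 ± 0.28, edgeR adjusted p = 0.0418). S100a3, a hair cuticle protein deiminated by Padi3, fell from 98.02 ± 45.4 to 12.2 ± 11.4 CPM (-2.96 ± 0.65, adjusted p = 0.0221). The Lor call was lost without blister 1, blister 2, control 1 or control 2 (adjusted p up to 0.121), and the S100a3 call without blister 1, control 1 or control 2 (adjusted p up to 0.0837), with a blister mean of S100a3 of 5.85 CPM without blister 3.

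The list of transcription factors of terminal epidermal differentiation had 24 genes, all tested, with 3 called higher and 2 lower and a median of 0.19. Calls in this list were thus about as frequent as over all genes tested (21.3%). Prdm1 (Blimp1), a repressor needed for cornification and present in sebaceous and hair lineages, fell from 58.6 ± 5.45 to 28.1 ± 5.18 CPM (-1.06 ± 0.16, edgeR adjusted p = 0.00841). Vdr, the vitamin D receptor, fell from 241 ± 24.9 to 121 ± 48.5 CPM (-0.98 ± 0.26, adjusted p = 0.0375). Ppard, a lipid-sensing nuclear receptor, rose from 77.4 ± 9.26 to 135 ± 16.4 CPM (0.80 ± 0.14, adjusted p = 0.0122), and Klf5, a factor of the basal layer, from 109 ± 6.70 to 181 ± 30.2 CPM (0.73 ± 0.15, adjusted p = 0.0173).

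Prdm1 was called in all 6 fits that left out 1 library, Ppard in all but the fit without control 1. Klf5 was not called without blister 1, control 1 or control 3. Vdr was called only in the fit without blister 3, with adjusted p up to 0.101 in the others.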

How the data were processed

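RNA-seq libraries (poly-A selected, TruSeq, per the labels' protocols) were processed with HISAT2 2.0.0 and featureCounts, and NCBIM37 and mm9 are named as builds, per the submitters' processing notes. The authors deposited raw counts per gene symbol, 24014 genes in each of 6 tables, and total counts ran from 7600567 to 15912863 per library. The strand setting and annotation behind the counting are not stated. No pair of libraries within a group was a copy.

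The test was edgeR's (version 4.0.16 in R 4.3.3; quasi-likelihood, not robust, two-sided), with TMM scaling, filterByExpr by group (minimum count 10, minimum total 15), the group as the single term and Benjamini-Hochberg adjustment over 14028 genes. SE is the log2 fold change divided by the square root of F. Single values were compared by exact two-sided permutation over libraries. Exon lengths came from GENCODE M21 and promoters from RefSeq, both GRCm38; all 9 members matched, and 8 had a promoter entry. The procedure was tested on simulated counts. Alternatives used DESeq2 1.42.0, limma 3.58.1, other scalings and filters, covariates and left-out libraries. Plots were drawn with matplotlib 3.10.9.

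Members, gene lists and tests were chosen with earlier results of these data known. The genes named were the 9 members, up to 6 called genes per list in order of p, and the 2 genes most like each member; exceptions are stated. Leaving out each library in turn was also read for single named genes. A called gene of 1 list is not reported here.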

Additional observations from a re-analysis of the deposited data

How the results depend on the processing

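Of 14028 genes, 2993 were called, 45.7% of them higher. DESeq2 called 3978, 49.2% higher. With library totals 3375 were called, 16.1% higher, and the median over all genes was -0.25; with upper-quartile factors 34.4% of 2874 were higher. Xist as a covariate left 1695 calls and the dermal marker level 214, of which 75.7% were higher. Leaving out 1 library gave 785 (without control 1) to 4061 (without blister 3) calls. Members called higher were 0, and 2 with DESeq2 (Tgm1, Tgm2), 1 without blister 3 and control 3 together and 1 with the dermal covariate (Tgm2 in both), and 0 to 1 with 1 library left out. Members called lower were 1 (Padi3), and 2 with library totals, with DESeq2 and without blister 3 and control 3 (Padi1 and Padi3), 0 with the dermal covariate, and 0 to 2 with 1 library left out. Limma-voom and robust edgeR called Padi3 alone of the members. The log2 fold change of Padi3 was below 0 in all 19 alternatives, from -4.07 to -2.55.

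Signs turned for Tgm3 (-0.44), Casp14 (-0.79) and Blmh (-0.10) with the dermal covariate, for Casp14 (-0.17) and Asprv1 (-0.015) with library totals, and for Casp14 without blister 3 and control 3 (-0.080). With 1 library left out, Tgm5 ran from -0.37 to 0.14 and Casp14 from -0.15 to 0.37. The Tgm1 share difference was 0.60 points by longest transcript and -2.79 to 2.07 with 1 library left out, that of Tgm2 -0.46 to 1.95. Per 1000 counts of Krt1 and Krt10, Tgm1 ran from -0.17 to 0.18 and Tgm2 from -0.38 to 0.95. The cause of these changes was not tested.

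The main test did not pair libraries by replicate number. Deviations from the group means correlated at 0.21, -0.26 and 0.01 for same-numbered libraries, and at -0.39 to 0.34 for the others. With 3 libraries per group these values can neither show nor exclude a pairing. With the replicate block 2876 genes were called, Padi3 had a log2 fold change of -3.15 (edgeR adjusted p = 0.0274), and no member's call changed. Reads limit Padi1 and Padi3 most, with as few as 13 and 20 counts in blister 2.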
